A study of Mus musculus with 21 samples.

Results

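A set of 8 genes of mast cells and basophils, Cpa3, Mcpt8, Fcer1a, Ms4a2, Prss34, Hdc, Gzmb and Tpsb2, was followed through every group of a mouse eosinophil study. They were chosen by name, with earlier results of these data known. They were matched by symbol in 3 tables of 15945, 22274 and 16645 genes, where 7, 7 and 8 of the 8 were found. Prss34 was reached in the second table only by its Ensembl identifier, ENSMUSG00000056399, because that table gives the gene another symbol, and its values there are reported beside the count of 7. Tpsb2 was not analysed here in the first table. The study asked how iron bears on eosinophil differentiation, and all of its mice were WT.

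In the first table untreated bone marrow eosinophils (n = 3) stood beside untreated GMPs (n = 3), granulocyte-monocyte progenitors of the marrow. In the second, untreated resting eosinophils (n = 3) stood beside eosinophils (n = 3) given IL-4 and GM-CSF, with IL-33, IL-34 or IL-35 named for replicates 1, 2 and 3 (T2). The third was of BMDEs, bone marrow-derived eosinophils, which are grown from marrow with SCF and FLT3 ligand at 100 ng/mL each for 4 days and then with IL-5 at 10 ng/mL. BMDEs were left untreated (n = 2), given 5 µM deferoxamine (DFO), an iron chelator (n = 3), or given ferric ammonium citrate (FAC), which supplies iron, at 10 µM (n = 4). The agents were added on day 4, and the cells were sequenced on day 7. That culture text stands on all labels, the isolation of the other cells is not given, and nothing says that replicates came from separate animals. P-values then measure the spread between these libraries only.

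Mast cells and basophils carry a high-affinity receptor for IgE. Allergen that bridges receptor-bound IgE makes them release granules holding histamine and serine proteases. Both arise from progenitors that they share in part with eosinophils, and marrow cultures rich in stem cell factor or IL-3 can hold them. Basophils of the mouse express Mcpt8 and Prss34, whereas Tpsb2 is a protease of connective tissue mast cells. Cpa3, Hdc and the IgE receptor genes are shared by both cells. Hdc is also expressed by other granulocytes, and Gzmb by T and NK cells, so neither marks these cells alone.

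Total counts per library lay between 25857361 and 28992674 in the first table, 16073573 and 18995878 in the second and 16809773 and 17991870 in the third. Eosinophil marker genes rose in 10 of 10 cases from GMPs to bone marrow eosinophils. The bone marrow eosinophil libraries also held other lineages: 9 neutrophil markers took 3.29% to 13.6% of their counts, more than the 1.84% to 2.54% of the 10 eosinophil markers, and 7 progenitor markers took 2.38% to 6.10%. In the resting and T2 libraries neutrophil markers took 0.0714% to 0.236%. In the FAC group, the only group of 4, no library was an outlier by Dixon's test for any member. With 4 values that test finds only extreme outliers. Genes with an adjusted p under 0.05 for FAC against control BMDEs were 761, and 2728 without FAC replicate 6.

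The members lie on 6 chromosomes (GRCm38). Cpa3, the gene of the mast cell carboxypeptidase, spans chr3:20215620-20242181, and Hdc, the gene of histidine decarboxylase, spans chr2:126593667-126619299. Fcer1a, for the IgE-binding chain, spans chr1:173221284-173227214, and Ms4a2, for the receptor's signal-amplifying beta chain, spans chr19:11615523-11623719. Mcpt8 (chr14:56082166-56085273) and Gzmb (chr14:56258838-56262260) belong to the granzyme and chymase cluster and lie 173564 bases apart. Prss34 (chr17:25298394-25300165) and Tpsb2 (chr17:25366305-25369098) belong to the tryptase cluster and lie 66139 bases apart.

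The promoter windows of 4 genes are shown because their genes moved in opposite directions between the FAC and DFO cultures, Cpa3 being higher and the other 3 lower with FAC. Each is the 250 bases before the gene's start in RefSeq (GRCm38.p6), written 5′ to 3′ on the gene's own strand. Capitals mark each match to the GATA motif (AGATAA and, with T as its first letter, TGATAA, each also searched with G as the last letter, on both strands; a match on the other strand reads as the reverse complement, such as TTATCT).
Cpa3 (chr3:20242182-20242431, minus strand): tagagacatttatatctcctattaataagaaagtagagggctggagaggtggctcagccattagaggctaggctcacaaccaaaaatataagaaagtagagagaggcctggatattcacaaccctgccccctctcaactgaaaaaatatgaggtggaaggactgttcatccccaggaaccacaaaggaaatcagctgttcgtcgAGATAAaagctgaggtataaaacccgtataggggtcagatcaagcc
Fcer1a (chr1:173227230-173227479, minus strand): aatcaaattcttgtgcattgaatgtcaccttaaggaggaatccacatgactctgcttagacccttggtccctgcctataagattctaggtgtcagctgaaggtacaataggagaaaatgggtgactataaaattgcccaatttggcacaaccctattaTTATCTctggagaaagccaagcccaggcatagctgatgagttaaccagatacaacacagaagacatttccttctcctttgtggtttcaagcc
Ms4a2 (chr19:11623720-11623969, minus strand): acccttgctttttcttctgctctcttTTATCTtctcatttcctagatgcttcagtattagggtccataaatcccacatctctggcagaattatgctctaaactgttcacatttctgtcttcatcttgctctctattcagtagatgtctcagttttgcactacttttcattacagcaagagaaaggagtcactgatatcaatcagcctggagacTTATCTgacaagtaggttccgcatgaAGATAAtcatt
Prss34 (chr17:25298144-25298393, plus strand): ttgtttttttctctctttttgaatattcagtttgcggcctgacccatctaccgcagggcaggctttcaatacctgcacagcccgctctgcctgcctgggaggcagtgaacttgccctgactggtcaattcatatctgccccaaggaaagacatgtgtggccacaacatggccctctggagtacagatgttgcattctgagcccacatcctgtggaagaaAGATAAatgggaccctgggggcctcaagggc
Matches lay 46 to 41 bases before the start in Cpa3 and 31 to 26 bases before it in Prss34. The Fcer1a match lay 92 to 87 bases before the start on the other strand. Ms4a2 held 3 matches, beginning 224, 37 and 11 bases before its start. Of the 7 members with a window, 5 held at least 1 match: these 4 and Hdc, whose match began 221 bases before the start. Among all 32851 windows of that length 26.5% held at least 1 match, and 1.35% held 3 or more. These are matches of letters, and binding was not measured. The windows of Gzmb, which had the largest rise with FAC, and of Mcpt8 held 0 matches. The Mcpt8 window overlaps an exon in GENCODE, the annotation that gave the gene spans above. The Hdc window (chr2:126618679-126618928) lies within the span given for Hdc, so the start sites of the annotations differ there.

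**Figure D1:**
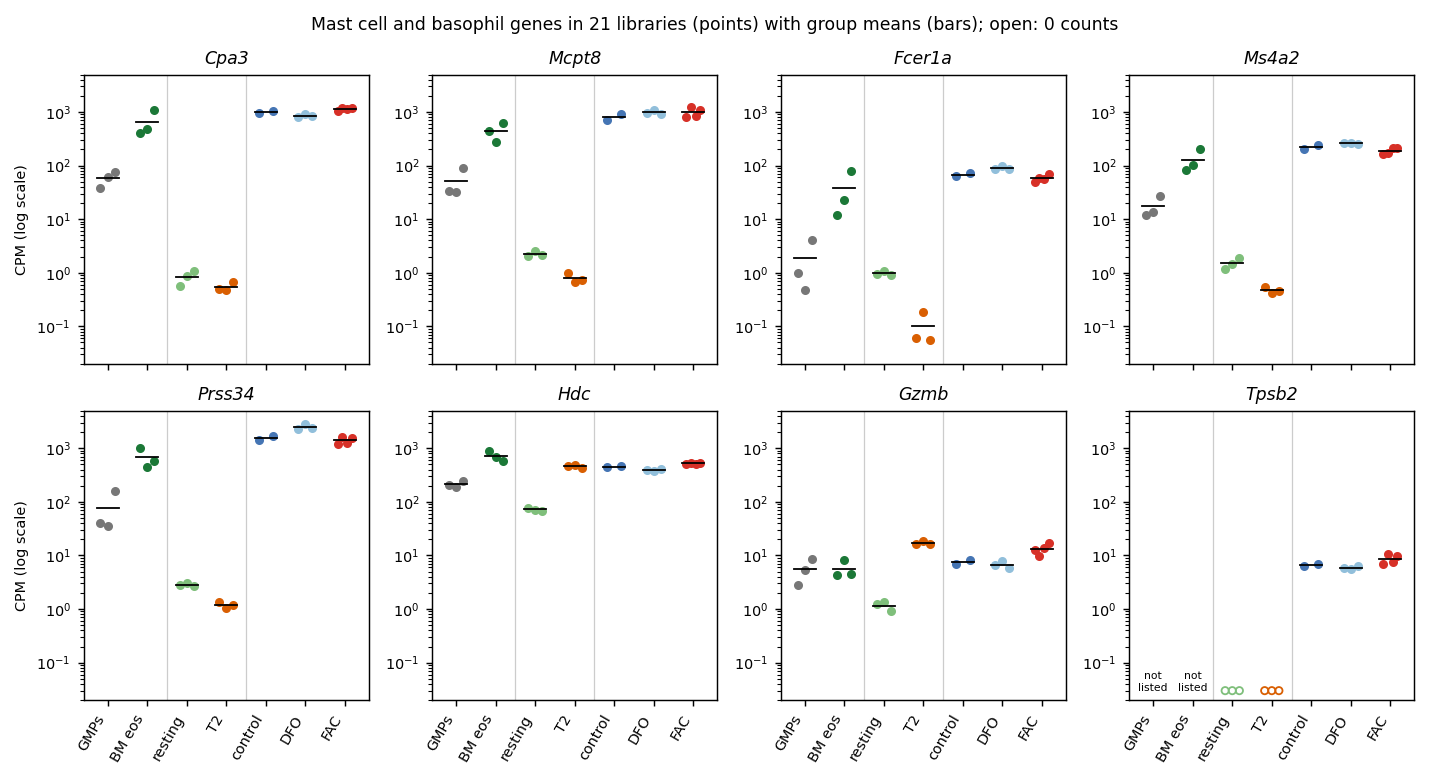
Level of each member in each of 21 libraries, as CPM (counts scaled to library size by TMM within each table) on a log axis, by group; points are libraries, bars are group means, and grey lines part the 3 tables. Cpa3, Mcpt8, Fcer1a, Ms4a2 and Prss34 are high in BMDEs and bone marrow eosinophils and at or below 3.06 CPM in every resting and T2 library, whereas Hdc is at or above 68.9 CPM in all 21.

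Levels are given as CPM, counts scaled to library size, and the tables were scaled separately, so an order across tables is a description of levels only. Cpa3 was highest in the BMDE groups, at 1150.2 CPM ± 69.6 (SD, n = 4) with FAC, 1009 ± 79.5 (n = 2) in controls and 859 ± 55.7 (n = 3) with DFO. Bone marrow eosinophils held 660 ± 381 CPM of Cpa3, a range that overlapped the DFO libraries only through replicate 3, at 1098 CPM. In the authors' FPKM (counts also divided by transcript length) the ranges were 330 to 601 and, with DFO, 755 to 849, without overlap. GMPs held 58.7 ± 19.8 CPM of Cpa3. Resting eosinophils held 0.843 ± 0.269 CPM of Cpa3 and T2 eosinophils 0.550 ± 0.105, ranges that overlapped.

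Mcpt8, Fcer1a, Ms4a2 and Prss34 gave the same order outside the BMDEs, from bone marrow eosinophils through GMPs and resting eosinophils to T2 eosinophils. Within that order neighbouring ranges overlapped only for Fcer1a, between GMPs (0.481 to 4.15 CPM) and resting eosinophils (0.925 to 1.07 CPM). In the BMDEs DFO libraries were the highest for Fcer1a, Ms4a2 and Prss34, and FAC and DFO ranges overlapped for Mcpt8. Outside the BMDEs Cpa3 followed this order too, and Hdc and Gzmb did not.

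In CPM Hdc was highest in bone marrow eosinophils, at 719 ± 152 (n = 3), then in FAC BMDEs at 528 ± 15.8 (n = 4). That lead depended on the measure. CPM here carries TMM factors, which were 1.01, 0.914 and 0.689 in bone marrow eosinophil replicates 1, 2 and 3. In the authors' FPKM bone marrow eosinophils ranged from 179 to 403. FAC (233 to 247), control (212 to 224) and DFO BMDEs (188 to 202) lay within that range. T2 eosinophils, at 464 ± 25.2 CPM of Hdc, overlapped control BMDEs, at 456 ± 14.4. DFO BMDEs (393 ± 17.2), GMPs (215 ± 31.3) and resting eosinophils (73.0 ± 4.75) followed without overlap in CPM. In FPKM T2 eosinophils ranged from 172 to 186 for Hdc, below every BMDE library. Gzmb, the gene of a protease that enters target cells, was highest in T2 eosinophils at 17.3 CPM ± 1.23, overlapping FAC BMDEs at 13.5 ± 2.95. It was lowest in resting eosinophils at 1.16 ± 0.211 CPM, and control BMDEs, DFO BMDEs, bone marrow eosinophils and GMPs overlapped at means of 7.63 to 5.62 CPM. Tpsb2 stood at 6.65 CPM ± 0.397 in control BMDEs and had 0 counts in all resting and T2 libraries, where 3 counts over a group would be 0.0549 and 0.0593 CPM.

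Between genes, levels were compared in the authors' FPKM, which divides by transcript length. In control BMDEs Prss34 stood at 1679.9 FPKM ± 221 (n = 2) and Mcpt8 at 1449.7 ± 275, above Cpa3 at 904 ± 78.3 and Hdc at 218 ± 8.09. The receptor chains Fcer1a (91.9 ± 7.72 FPKM) and Ms4a2 (91.2 ± 11.4 FPKM) were nearly equal, and Tpsb2 (8.03 ± 0.566 FPKM) and Gzmb (6.26 ± 0.693 FPKM) were lowest. The basophil proteases were thus the most abundant members per length, and the mast cell tryptase was among the least.

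Bone marrow eosinophils were compared with GMPs to see how the members differ between the progenitors and the eosinophils of the marrow. The receptor genes, Cpa3, both basophil proteases and Hdc were all higher in bone marrow eosinophils, by 3.34-fold to 20.2-fold, and Gzmb was not called. Of the 7 members tested 6 were higher and 0 lower at an adjusted p under 0.05, where 19.8% of 12214 genes were called, 13% higher and 6.78% lower. Groups did not overlap for those 6 members, against 48.3% of all genes. The median log2 fold change was 3.11 over the members and 0.01 over all genes tested. In bulk RNA, fewer cells of a type and less RNA per cell cannot be told apart.

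The alpha chain gene Fcer1a stood at 11.9, 22.8 and 79.5 CPM in bone marrow eosinophils and at 0.992, 0.481 and 4.15 CPM in GMPs. The third library was the highest in both groups, and the groups did not overlap. Its log2 fold change was 4.34 ± 1.07 (SE; adjusted p = 0.0324). Ms4a2 stood at 81.5, 104 and 201 CPM against 12.1, 13.4 and 27.5 CPM. That is a log2 fold change of 2.87 ± 0.48 (adjusted p = 0.00867), with the lowest eosinophil library above the highest GMP library.

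Among the proteases, Cpa3 stood at 403, 478 and 1098 CPM in bone marrow eosinophils and 37.8, 61.0 and 77.2 CPM in GMPs, with a log2 fold change of 3.49 ± 0.48 (adjusted p = 0.00441). Mcpt8 stood at 438, 277 and 621 CPM against 33.8, 32.3 and 88.5 CPM, a log2 fold change of 3.11 ± 0.51 (adjusted p = 0.00832). Prss34 stood at 1026, 446 and 569 CPM against 40.8, 36.0 and 156 CPM, a log2 fold change of 3.13 ± 0.67 (adjusted p = 0.0209). The eosinophil library with the most Prss34 was the first, whereas the third had the most Cpa3 and, in CPM, the most Mcpt8. In the authors' FPKM Mcpt8 was highest in the first, at 687 against 638 in the third. In GMPs the third library was the highest for all 3 proteases.

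Hdc, which makes histamine, stood at 881, 696 and 579 CPM in bone marrow eosinophils and 210, 187 and 249 CPM in GMPs. Its log2 fold change of 1.74 ± 0.22 (adjusted p = 0.00295) was the smallest of the 6. Gzmb stood at 4.29, 8.22 and 4.55 CPM against 2.86, 5.32 and 8.69 CPM, overlapping ranges (log2 fold change 0.02 ± 0.56, adjusted p = 0.985). Its direction depended on the scaling: DESeq2 size factors gave -0.01 and upper-quartile factors -0.06.

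Some genes that work with the members also differed, read against the 13% of all genes tested that were higher. Of 17 genes of IgE receptor signalling, with a median log2 fold change of 0.09, 5 rose, among them Fcer1g, the receptor's gamma chain (log2 fold change 1.74 ± 0.46, adjusted p = 0.0404), and 1 fell, the adaptor Lat2 (-1.02 ± 0.16, adjusted p = 0.00711). Of 5 tested genes of histamine handling 3 rose: the organic cation transporter Slc22a3 (2.52), the degrading enzyme Hnmt (2.44) and the vesicular monoamine transporter Slc18a2 (1.46). Of 9 genes of granule storage and release 6 rose, led by the granule tetraspanin Cd63 (4.09) and the proteoglycan Srgn, which binds granule proteases. Of 13 surface genes 8 rose, including the adenosine receptor Adora3 (5.00) and the basophil receptor Cd200r3 (3.95). Among 10 transcription factors, with a median of -0.05, Bhlhe40 (5.44), Gata1 (4.90) and Gata2 (1.87) rose.

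Other lineages moved with this comparison as well. Neutrophil markers rose in 9 of 9 cases and took 0.00757% to 0.0110% of counts in GMPs. B cell markers rose in 7 of 7 cases and erythroid markers in 8 of 8, and macrophage markers rose in 7 of 8 with 1 lower. Their part in the members' difference was not tested. Of 9 other mast cell proteases only 3 were found for these libraries, and 1 was tested and not called. Cma1, a mast cell chymase gene, was at 0 in the bone marrow eosinophil libraries, and Mcpt2 was at 0 in GMPs. The comparison therefore says little about these proteases. Calls rested partly on single libraries: without GMP replicate 2, adjusted p was 0.113 for Fcer1a, 0.0557 for Ms4a2 and 0.0840 for Prss34. Without GMP replicate 1 it was 0.135 for Fcer1a and 0.0883 for Prss34, and without bone marrow eosinophil replicate 2 it was 0.0652 for Fcer1a.

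T2 eosinophils were compared with resting eosinophils, a comparison that the study used as a model of an allergic response. Hdc rose 6.36-fold and Gzmb 14.7-fold, while the receptor chains and basophil proteases, already near the limit of detection, fell. Of 6 members tested by symbol 2 were higher and 3 lower. In this comparison 76.1% of 11345 genes were called, 38.2% higher and 37.9% lower, and 77.7% had groups that did not overlap, so a call is no sign of anything particular to the members.

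Hdc stood at 78.2, 71.9 and 68.9 CPM in resting and 472, 484 and 436 CPM in T2 eosinophils, a log2 fold change of 2.67 ± 0.06 (adjusted p = 7.83e-16). The 3 T2 libraries were close to each other although the labels name a different interleukin for each. Gzmb stood at 1.24, 1.33 and 0.925 CPM in resting and 16.6, 18.7 and 16.6 CPM in T2 eosinophils, a log2 fold change of 3.88 ± 0.15 (adjusted p = 1.34e-12). Neither gene's groups came near each other.

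Gzmb is also a gene of T and NK cells, and 15 tested markers of those cells gave 2 higher and 5 lower calls. Their summed share of counts was 0.00542% to 0.00595% in resting and 0.00530% to 0.00579% in T2 eosinophils, overlapping ranges. Within the list Cd8a and Gzma rose, Gzma by 0.75 ± 0.08 on the log2 scale, while Gzmm, Klrd1 and Cd7 were among those that fell. None of the listed markers was at 0 in either group.

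Mcpt8 had 36, 50 and 37 counts in resting libraries and 16, 11 and 13 in T2 libraries, a log2 fold change of -1.49 ± 0.30 (adjusted p = 0.000303). Fcer1a had 17, 21 and 16 counts against 1, 3 and 1, which is 10.0-fold lower by summed counts with an exact 95% interval of 4.03 to 32.0 for counting error. Ms4a2 had 21, 28 and 33 counts against 9, 7 and 8, which is 3.16-fold lower with an interval of 1.99 to 5.21. Prss34, matched by identifier, had 51, 60 and 46 counts against 22, 17 and 21, which is 2.42-fold lower with an interval of 1.79 to 3.32. In each case every T2 library lay below every resting library.

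Cpa3 had 10, 17 and 19 counts in resting and 8, 8 and 12 in T2 eosinophils, and its difference was not called (log2 fold change -0.60 ± 0.39, adjusted p = 0.169). Fcer1a and Ms4a2 were under 10 counts in every T2 library and passed the filter on low counts through the resting libraries, so their calls support no statement about the list. Tpsb2 had 0 counts throughout. All of these genes were at or below 3.06 CPM in both groups. Neutrophil markers fell in 5 of 9 cases and erythroid markers in 5 of 5 between the same libraries, and their part in the members' differences was not tested.

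Mediator genes outside the members changed too, in a comparison where 76.1% of all genes tested were called. All 8 tested cytokine genes of mast cells and basophils rose, led by Il6 (log2 fold change 8.43 ± 0.14), the chemokine Ccl3 (7.83 ± 0.09), Il13 (7.66 ± 0.10) and the chemokine Ccl4 (7.48 ± 0.11). Beside Hdc, 5 genes of histamine handling were tested, and 2 rose and 2 fell, with a median of 0.28. Among them the transporter Slc18a2, which loads histamine into vesicles, rose (1.49 ± 0.16, adjusted p = 4.04e-07). The degrading enzyme Hnmt fell (-1.76 ± 0.43, adjusted p = 0.00145). Of 9 genes of granule storage and release 3 rose and 3 fell, with a median of 0.00: Ctsc, which activates granzymes (2.54 ± 0.06), Srgn (1.71 ± 0.04) and Cd63 (0.63 ± 0.04) rose, and Ndst2 (-1.22 ± 0.05), Unc13d (-0.81 ± 0.04) and Rab27a (-0.30 ± 0.04) fell. Fcer1g, the shared gamma chain, rose by 1.32 ± 0.04. The alpha and beta chain genes had at most 3 and 9 counts in a T2 library, so no contrast between the chains is drawn. Of 10 transcription factors 7 rose, Gata1 and Gata2 each by 0.97, and 3 fell.

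**Figure D2:**
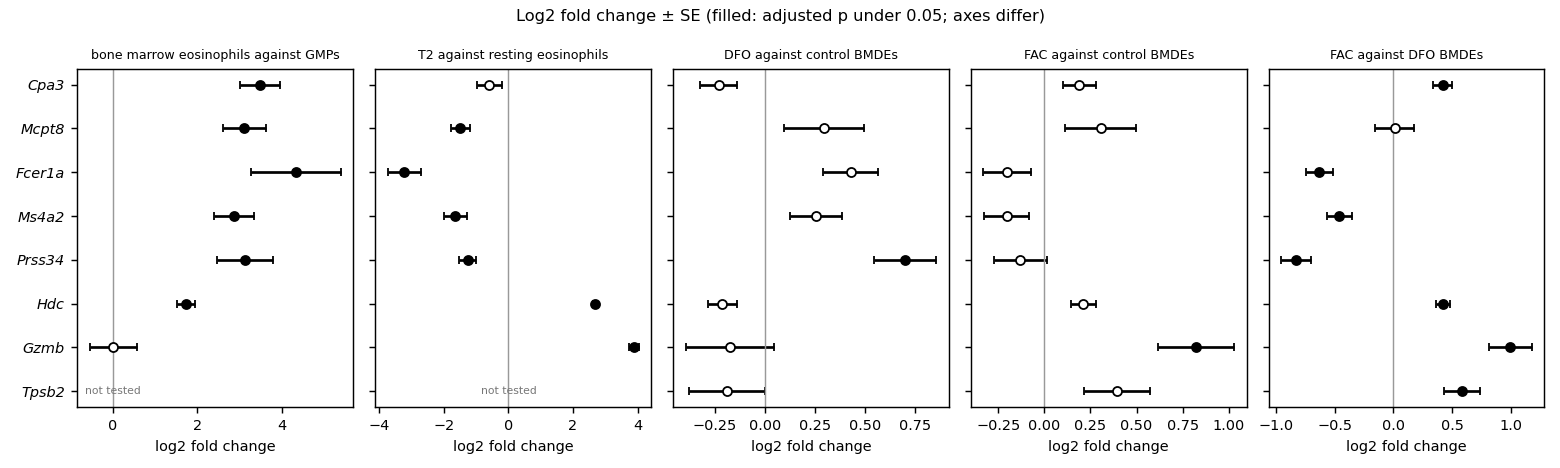
Log2 fold change (first-named group minus second) of each member in 5 comparisons, with bars of 1 SE; filled points have an adjusted p under 0.05, and the horizontal axes differ between panels. All called members share a direction across the first panel, where 6 of 7 are filled to the right, and split in the T2 and FAC against DFO panels; Prss34 in the T2 panel was matched by identifier.

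In the BMDE table all 3 comparisons come from 1 fit over 9 libraries. They share arms, so their calls are not independent. Against the controls few members moved far enough to be called: Prss34 rose with DFO and Gzmb rose with FAC. Of 8 members 1 was called in each comparison, where 11.6% of 12607 genes were called with DFO (6.46% higher, 5.12% lower) and 6.04% with FAC (1.76% higher, 4.28% lower). A count of 1 of 8 is near those shares and is no result about the members as a list.

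Prss34 stood at 1415 and 1692 CPM in controls and at 2389, 2333 and 2840 CPM with DFO, non-overlapping values (log2 fold change 0.70 ± 0.16, adjusted p = 0.0212). The call ended when any 1 control or DFO library was left out, with adjusted p from 0.0524 to 0.196. Fcer1a was 64.1 and 71.6 CPM in controls and 87.4, 86.1 and 99.9 CPM with DFO (0.43 ± 0.14, adjusted p = 0.0782), also without overlap. Hdc was 445 and 466 CPM against 413, 386 and 381 CPM (-0.21 ± 0.07, adjusted p = 0.0930). The other 5 members differed by -0.23 to 0.29 on the log2 scale. Groups did not overlap for 7 of the 8 members, against 65.7% of all genes.

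The count of members called with DFO differed between fits. It was 6 when only the control and DFO libraries were fitted, 3 with DESeq2 and 5 without FAC replicate 6. In the last case Fcer1a (adjusted p = 0.00576), Hdc (0.00471), Cpa3 (0.0120) and Ms4a2 (0.0391) passed beside Prss34, with nearly unchanged fold changes. Without any 1 control or DFO library it was 0.

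With FAC, Gzmb stood at 12.9, 9.97, 13.9 and 17.1 CPM, above both controls at 7.06 and 8.19 CPM (log2 fold change 0.82 ± 0.21, adjusted p = 0.0499). The adjusted p was above 0.05 without either control, without any 1 DFO library and without FAC replicate 5, 7 or 8, reaching 0.355. Hdc was 519, 542, 510 and 540 CPM against 445 and 466 CPM in controls (0.21 ± 0.07, adjusted p = 0.111). Without FAC replicate 6 both Gzmb and Hdc were called, Hdc with an adjusted p of 0.0117. The remaining 6 members differed from controls by -0.20 to 0.39 on the log2 scale, and none was called.

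FAC and DFO cultures were then compared with each other, iron loading against iron chelation. The members split: Gzmb, Tpsb2, Cpa3 and Hdc were higher with FAC, and Prss34, Fcer1a and Ms4a2 were lower. Of 8 members 4 were higher and 3 lower, where 48.2% of 12607 genes were called, 23.5% higher and 24.8% lower. Differences were small, between 1.34-fold and 2.00-fold. Groups did not overlap for 7 members, against 55.7% of all genes.

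Genes of the IgE receptor were lower with FAC. Fcer1a stood at 49.6, 59.4, 57.1 and 69.6 CPM with FAC and 87.4, 86.1 and 99.9 CPM with DFO (log2 fold change -0.63 ± 0.11, adjusted p = 0.00176). Ms4a2 stood at 167, 171, 212 and 214 CPM against 254, 267 and 268 CPM (-0.46 ± 0.11, adjusted p = 0.00701). For both genes the highest FAC library was below the lowest DFO library. Fcer1g, the gamma chain that other Fc receptors use too, was not called (0.19 ± 0.16, adjusted p = 0.361).

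The proteases did not move as a group. Prss34 stood at 1226, 1607, 1255 and 1590 CPM with FAC and 2389, 2333 and 2840 CPM with DFO, 1.78-fold lower (-0.83 ± 0.13, adjusted p = 0.000721). Mcpt8, the other basophil protease, stood at 798, 1262, 846 and 1112 CPM against 934, 968 and 1085 CPM, overlapping ranges (0.01 ± 0.17, adjusted p = 0.956). Its sign changed when single libraries were left out, down to -0.10 without FAC replicate 6. Cpa3 stood at 1055, 1211, 1142 and 1192 CPM against 835, 820 and 923 CPM, higher with FAC (0.42 ± 0.08, adjusted p = 0.00235).

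Gzmb and Tpsb2 were much less abundant. Gzmb stood at 12.9, 9.97, 13.9 and 17.1 CPM with FAC and 5.83, 6.71 and 7.72 CPM with DFO (1.00 ± 0.18, adjusted p = 0.00198). Tpsb2 stood at 6.99, 10.5, 7.54 and 9.93 CPM against 6.23, 5.76 and 5.51 CPM (0.58 ± 0.16, adjusted p = 0.0136). The gap between the nearest Tpsb2 libraries was under 1 CPM, and adjusted p was 0.0506 without DFO replicate 11 and 0.0560 without DFO replicate 12. Tpsb2 belongs to a cluster of related tryptase genes, and the assignment of reads among them was not checked. Of the neighbouring pairs, Prss34 and Tpsb2 moved in opposite directions, and Gzmb rose where Mcpt8 was not called.

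Hdc stood at 519, 542, 510 and 540 CPM with FAC and 413, 386 and 381 CPM with DFO, a log2 fold change of 0.42 ± 0.06 (adjusted p = 0.000483). Its change was close in size to that of Cpa3. The rest of histamine handling went the other way: of 6 tested genes 0 rose and 4 fell, the receptors Hrh2 (-1.60 ± 0.11) and Hrh1 (-1.09 ± 0.27), the degrading enzyme Hnmt (-1.02 ± 0.17) and the transporter Slc18a2 (-0.74 ± 0.09). Slc18a2 fell from a mean of 146 to 87.2 CPM. Of all genes tested 24.8% were called lower with FAC.

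**Figure D3:**
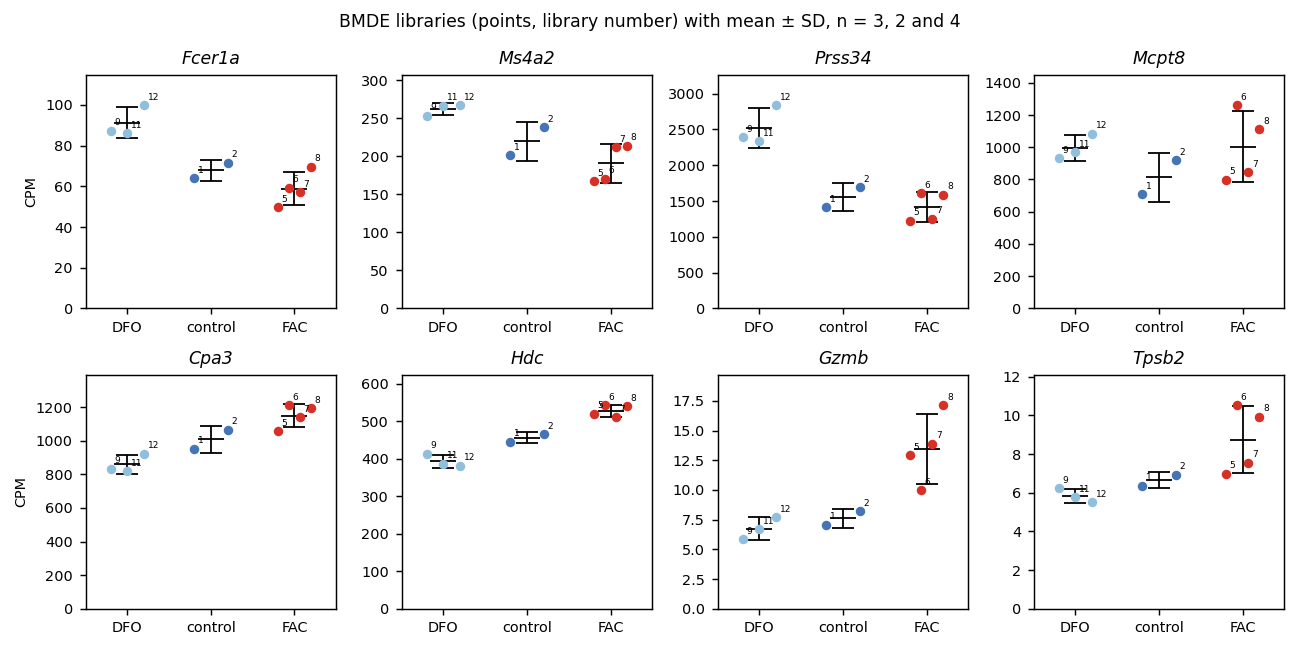
Level of each member (CPM, linear axes from 0) in the DFO (n = 3), control (n = 2) and FAC (n = 4) BMDE libraries; points are libraries with their number, and bars are mean ± SD. In the upper row Fcer1a, Ms4a2 and Prss34 are highest with DFO and Mcpt8 overlaps, and in the lower row Cpa3, Hdc, Gzmb and Tpsb2 are highest with FAC.

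Ratios of members within a library do not depend on how libraries are scaled, and they were taken in FPKM. The ratio of Prss34 to Cpa3 was 3.44 to 3.74 with DFO, 1.79 to 1.91 in controls and 1.33 to 1.65 with FAC. The 3 arms did not overlap in this ratio. The ratio of Mcpt8 to Prss34 was 0.631 to 0.683 with DFO, 0.824 to 0.896 in controls and 1.08 to 1.27 with FAC, again without overlap. By contrast the ratio of Hdc to Cpa3 stayed within 0.221 to 0.266 in all 9 BMDE libraries. The receptor chains kept a ratio of Fcer1a to Ms4a2 near 1 in all arms, from 0.883 to 1.22. Each ratio was picked after its genes' values were known and has no test.

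The other tables gave other ratios of Hdc to Cpa3. The ratio was 1.70 to 3.10 in GMPs and 0.298 to 1.22 in bone marrow eosinophils. It was 38.0 to 84.4 in resting and 394 to 604 in T2 eosinophils, where Cpa3 rests on 8 to 19 counts a library. Hdc was therefore abundant in libraries where Cpa3 was nearly undetected.

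**Figure D4:**
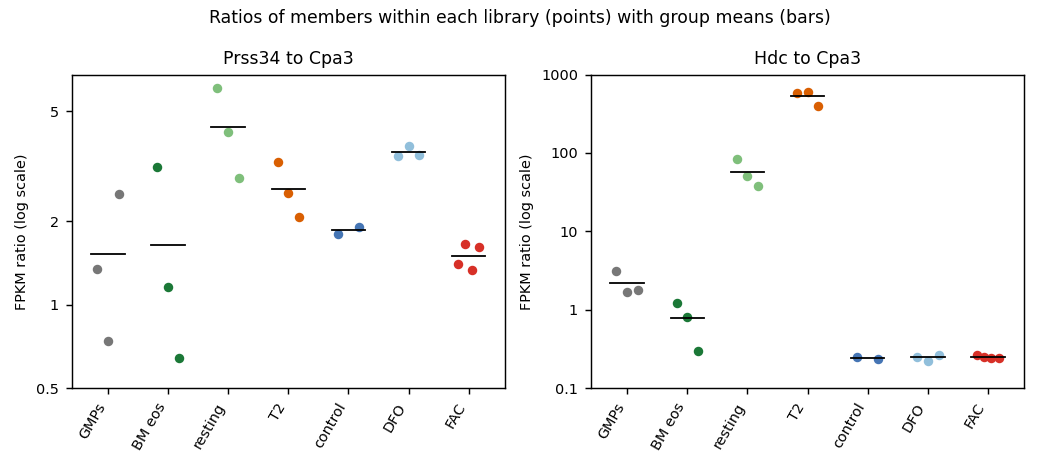
Ratio of FPKM between members within each library, on log axes, for Prss34 to Cpa3 and Hdc to Cpa3; points are libraries and bars are group means. The first ratio separates the DFO arm (3.44 to 3.74) from the FAC arm (1.33 to 1.65), and the second is alike in the 3 BMDE arms and at or above 38.0 in every resting and T2 library.

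Genes that act beside the members differed between FAC and DFO in both directions. Of all genes tested 48.2% were called, 23.5% higher and 24.8% lower. Of 17 genes of IgE receptor signalling 2 rose and 8 fell, and the kinases Fyn (-1.42 ± 0.06, adjusted p = 7.75e-07) and Lyn (-0.69 ± 0.07) and the adaptor Grap2 (-1.11 ± 0.12) were among those that fell. Of 13 surface genes 6 rose and 2 fell: the adenosine receptor Adora3 rose (1.21 ± 0.09), and the stem cell factor receptor Kit (-0.88 ± 0.09) and Cd200r3 (-0.58 ± 0.12) fell. Of 10 transcription factors Gata1 (0.78 ± 0.09), Bhlhe40 (0.68 ± 0.08) and Gata2 (0.62 ± 0.07) rose and 5 fell, Cebpa by -0.69 ± 0.10. Among 3 other proteases tested Cma1 (1.34 ± 0.17) and Tpsg1 (0.96 ± 0.24), both of mast cells and under 4 CPM, rose, and Ctsg, shared with neutrophil precursors, fell (-0.61 ± 0.08).

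Markers of other cells moved between the same arms. Eosinophil markers took 1.95% to 2.29% of counts with DFO, 4.35% to 4.41% in controls and 5.66% to 6.44% with FAC, and 10 of 10 were higher with FAC than with DFO. Neutrophil markers fell in 9 of 9 cases, from 1.73% to 1.94% of counts with DFO to 0.619% to 0.848% with FAC, and progenitor markers in 6 of 7. Plasmacytoid dendritic cell markers fell in 7 of 7 cases, from a share of 0.0953% to 0.0976% to one of 0.0228% to 0.0274%. T and NK cell markers, which matter for Gzmb, gave 1 higher and 5 lower calls of 12 while Gzmb rose. The members together took 0.511% to 0.588% of counts with DFO, 0.385% to 0.456% in controls and 0.369% to 0.462% with FAC. The part of these cells in the members' differences was not tested.

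Likeness of levels was described by Pearson's r of log2(CPM + 1) over 21 libraries and 11477 genes. Cpa3, Mcpt8, Fcer1a, Ms4a2 and Prss34 resembled each other over these libraries, with r from 0.930 (Cpa3 and Fcer1a) to 0.996 (Mcpt8 and Prss34). It was 0.996 between Mcpt8 and Ms4a2 and 0.994 between Cpa3 and Mcpt8. Hdc had r of 0.545 to 0.618 with those genes. Gzmb had at most 0.271 with them and 0.763 with Hdc. The other genes named here are the most alike among genes outside the 8 members. These libraries come from 3 tables of different cells, and libraries of a table share depth and scaling. Outside the members, Cpa3 was most like Grb10 (r = 0.987), Angpt1 and Ptger3. Mcpt8 and Prss34 were both most like Cd68 among these genes (0.989 and 0.991), followed by Slc22a3. Ms4a2 came next to Slc22a3 (0.986), Ptger3 and Samd14, and Fcer1a was most like 4930503B20Rik (0.986), Aldh1a1 and Stap2. Hdc and Gzmb had lower best values, with Rab7 (0.935) and Etv5 (0.912).

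Over the 9 BMDE libraries and 11810 genes the genes most alike, again with members left out, were others. Prss34 was most like Cebpa (r = 0.992), which encodes a granulocyte transcription factor, then Ctsg and Ctso. Fcer1a was most like Ctsg (0.981), Adamts10 and Zcchc18, and Ms4a2 was most like Cd200r3 (0.986), the serotonin transporter gene Slc6a4 and Zfp58. Cpa3 was most like Fadd (0.969), Golt1b and Tigd3. Hdc was most like Hacd3 (0.993), Psat1 and Nono, and Gzmb was most like Asb2 (0.964), Cdkn2c and Add1. Tpsb2 was most like Mitd1 (0.959), Wtap and Slc35b2, and Mcpt8 had the lowest best value, with Tatdn3 (0.921), Dvl2 and Tnfsf12. Among members, the likeness seen over 21 libraries held only in part within the BMDEs. Fcer1a, Ms4a2 and Prss34 stayed alike, with r from 0.813 (Ms4a2 and Prss34) to 0.964 (Fcer1a and Prss34). Cpa3 had r of -0.683 with Fcer1a, -0.688 with Ms4a2 and -0.686 with Prss34. With Cpa3, Fcer1a, Ms4a2 and Prss34, Mcpt8 had r of at most 0.444, reached with Prss34. These 9 libraries share 3 treatment arms.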

How the data were processed

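The 21 poly(A) RNA libraries were deposited as 3 tables. The authors gave expected counts (estimates that hold fractions) for bone marrow eosinophils, GMPs and BMDEs, and whole read counts for resting and T2 eosinophils, all as deposited without scaling. All 3 tables also hold FPKM, deposited by the authors beside the counts. Per the submitters' processing notes fastp 0.18.0, Bowtie2 2.2.8, HISAT2, StringTie 1.3.1, RSEM and mm10 were used, with no role given. The library kit's strand setting is not given in the sources used here.

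After rounding of expected counts, every table had its own fit in edgeR 4.0.16 (R 4.3.3) with filterByExpr (minimum count 10), TMM and the two-sided quasi-likelihood F test, and p-values were adjusted over all genes tested (Benjamini-Hochberg). The 3 BMDE arms were 1 fit. Genes were called at an adjusted p under 0.05. SE was derived from the F statistic. CPM carries TMM factors. The script was tested on simulated counts. Intervals for summed counts are exact binomial and cover counting error only.

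The members and lists were chosen with earlier results of these data known. Context genes named in the text are among the 4 largest called changes of their list, except Gata1, Gata2, Gzma, Cd63 and Rab27a with T2 cytokines and the uncalled Fcer1g, named after their values were seen. Genes most like a member are the top 3 by Pearson's r among non-member genes at a mean of at least 1 CPM. Symbols were matched by identifier. Promoters are from RefSeq (GRCm38.p6) and positions from GENCODE on GRCm38. Alternatives were DESeq2 1.42.0, its size factors, upper-quartile factors, no filter on low counts, a replicate block, 2 arms only and leaving out each library.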

Additional observations from a re-analysis of the deposited data

How the results depend on the processing

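The members gave 38 results and 490 values under alternatives: 442 kept direction and side of the threshold, 23 lost and 13 gained a call, and 12 changed sign, all of them in results that were not called. For bone marrow eosinophils against GMPs the genes called were 2413, against 3867 with DESeq2, 1419 with a replicate block and 747 to 4623 with 1 library left out; members called were 6, or 3 to 6 with 1 left out. Gzmb there changed sign to -0.00937 with DESeq2 size factors, -0.00881 with the DESeq2 test, -0.0624 with upper-quartile factors and -0.000398 with no filter, and ranged from -0.350 to 0.470 with 1 library left out (below 0 in 3 of 6 fits). For T2 against resting eosinophils every alternative gave 5 members; the median of all genes shifted to -0.13 with upper-quartile factors and -0.14 with no filter, with no change of a member's direction.

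For DFO against control the genes called were 1460, against 5982 with 2 arms only and 217 to 4899 with 1 library left out; members called were 1, against 3 with DESeq2, 6 with 2 arms only and 0 to 5 with 1 left out. For FAC against control the genes called were 761, against 1316 with DESeq2, 116 with 2 arms only and 76 to 2728 with 1 left out; members called were 1, against 0 with no filter, 2 with DESeq2, 0 with 2 arms only and 0 to 2 with 1 left out. Prss34 there ranged from -0.254 without control replicate 1 to 0.00397 without control replicate 2. The FAC against DFO members were 7, or 6 to 7 with 1 left out; Mcpt8 ranged from -0.101 without FAC replicate 6 to 0.133 without FAC replicate 5 and was below 0 in 4 of these fits. The cause was not tested.

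Same-numbered libraries were not treated as pairs in the main fits, and nothing says whether they shared animals. Their deviations correlated at 0.00498 to 0.119 between bone marrow eosinophils and GMPs, where differently numbered libraries gave -0.176 to 0.144. Between resting and T2 eosinophils the values were -0.0216 to 0.0335 and -0.0491 to 0.0523. With 3 libraries a group these values cannot settle whether libraries were paired. With the replicate block 6 and 5 members were called, as without it. No paired analysis was possible in the BMDE table because its arms share no replicate numbers. Where a control library was left out, the lone control was assumed to vary like the other arms. Depth limits Cpa3, Mcpt8, Fcer1a, Ms4a2 and Prss34 in resting and T2 eosinophils and Gzmb in resting eosinophils, which rest on 60 counts or fewer a library.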

Other observations

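Among the 4 FAC libraries several members had a common order. Replicates 6 and 8 were the highest for Mcpt8 (1262 and 1112 CPM against 798 and 846), Prss34 (1607 and 1590 against 1226 and 1255), and Tpsb2 (10.5 and 9.93 against 6.99 and 7.54), in CPM and in the authors' FPKM alike. For Cpa3 the same order held in CPM (1211 and 1192 against 1055 and 1142) but not in FPKM, where replicate 7 (979.9) was above replicate 6 (946). Ms4a2 differed, with replicates 7 and 8 at 212 and 214 CPM and replicates 5 and 6 at 167 and 171. Replicate 6 was also the lowest for Gzmb, at 9.97 CPM, and the highest of the arm for T and NK cell markers (0.0116% of counts against 0.00827% to 0.00866%).

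In bone marrow eosinophils the libraries were ordered differently by Prss34 and Hdc, both highest in replicate 1, and by Cpa3, Fcer1a and Ms4a2, all highest in replicate 3. Mcpt8 was highest in replicate 3 in CPM and in replicate 1 in counts and FPKM. The share of counts in neutrophil markers was 3.29%, 6.51% and 13.6% in replicates 1, 2 and 3, and that in progenitor markers was 6.10%, 4.15% and 2.38%.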
